A study of Bos taurus with 28 samples.

Results

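Secreted plasma proteins were followed in the liver of dairy cows as 51 genes with a named probe, of 8073 named genes on the array. They are the genes whose symbol in the platform annotation is that of a major plasma carrier or acute phase protein, a complement component or regulator, a clotting factor or fibrinolysis protein, an inter-alpha-trypsin inhibitor heavy chain, alpha-2-macroglobulin or a serpin. The rule uses gene symbols and no measured value of a gene. Each had 1 probe, and all 51 were found in RefSeq (assembly ARS-UCD2.0) by gene ID. Of the 51, 49 had values in enough cows to be tested, of 6958 genes tested in all. GC, LBP, PLG, FGA, FGB and CRP are also listed for the set but had no probe with a single gene symbol, and they were not analysed here.

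The samples were livers of 14 multiparous Holstein cows, early postpartum by the sample titles, 7 per group, judged healthy on day 4 and allotted to the groups at random. The day on which each liver was sampled is not given here. In the ketosis group, feed was cut to 50% of earlier intake from day 5 by the design text (day 4 by the sample labels) until clinical ketosis or day 14 at the latest. Healthy cows ate freely according to the labels of 6 of them; the labels of healthy cow 7 give its state and no feeding. Ketosis, the build-up of ketone bodies when body fat is drawn on heavily, was thus brought on by restriction of feed, and shortage of feed and ketosis cannot be told apart in this design. Each liver RNA was hybridised on 2 cDNA arrays with the dyes exchanged, against RNA pooled from cattle tissues. A level below is the log2 ratio of liver over that reference, averaged over both arrays of a cow, with each array centred on its median; its direction, liver over reference, is likely: the titles name the dye of the liver, and hepatocyte markers lay high on all 28 arrays. A ratio to a mixed reference does not give the abundance of one mRNA against another, so levels are compared between cows and not between genes.

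Hepatocytes make most of the proteins of blood plasma and release them into the liver sinusoids. Albumin carries fatty acids and hormones, complement is a cascade of proteases and pore-forming proteins that marks and lyses microbes, and the clotting cascade ends in fibrin. In the acute phase response, cytokines such as interleukin 6 raise the output of one group of these proteins and lower that of another, to which albumin, transferrin and transthyretin belong.

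Healthy cow 7 stood apart from the other 13 cows, and each gene's difference and the counts of calls are therefore given with and without it. Its levels correlated over genes with those of other cows at 0.397 to 0.483, against 0.792 to 0.939 among the other 13. The median level of the 49 genes was 1.65 in healthy cow 7, 4.70 to 6.08 in healthy cows 1 to 6, and 4.24 to 5.20 in ketotic cows. Healthy cow 7 lay below the other 6 healthy cows for 43 of the 49 genes, within their range for ALB and SERPINB8, and above it for SERPINB1, SERPINB6 and SERPINE2; F11 had no value there. Marker lists moved in the same animal. Over 12 measured of 20 listed hepatocyte markers the median level was 2.97 in healthy cow 7 against 4.52 to 6.27 in healthy cows 1 to 6 and 5.01 to 6.0 in ketotic cows. Over 9 measured of 12 stellate cell and fibroblast markers it was 0.63 against -3.31 to -0.61 and -3.72 to -2.22. On the Cy3 array of this cow 569 spots were empty, against 2332 to 8159 on the other arrays. Its labels differ as well: the description fields hold no text, and the Cy3 array names liver as the first channel where the other Cy3 arrays name it second. The direction of that array did not oppose its partner, since once turned the 2 arrays of this cow correlated at 0.585, against 0.579 to 0.701 for the other cows, and hepatocyte markers lay above stellate cell markers on both, by 2.90 and 2.17. Whether this cow is labelled correctly was not tested, nor was the part of these differences in the results, and the doubt touches every value given with this cow.

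**Figure D1:**
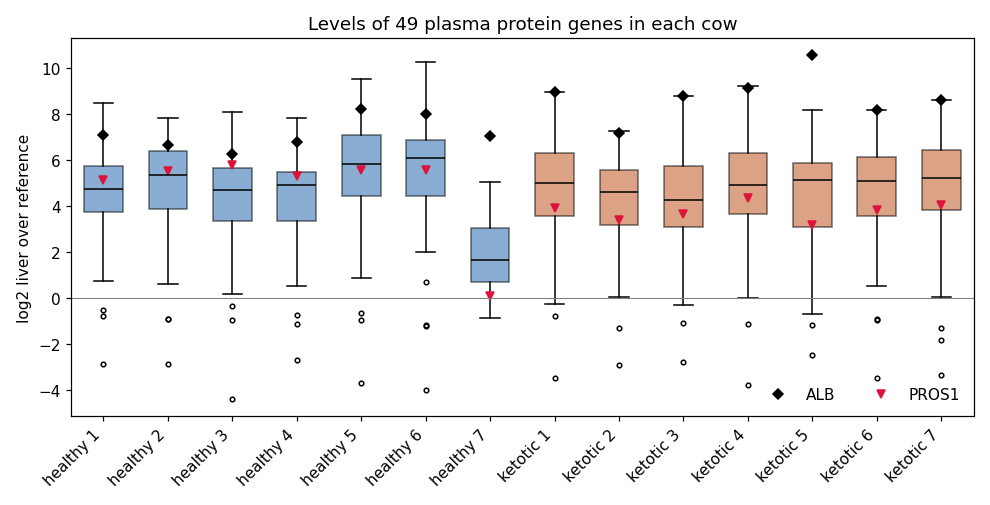
Box plots of the log2 ratio of liver over reference (y axis) for the 49 tested genes in each of the 14 cows (x axis; boxes span the quartiles, lines are medians, whiskers reach the last gene within 1.5 box lengths, open circles are genes beyond). Blue boxes are healthy and orange boxes ketotic cows; the box of healthy cow 7, median 1.65, lies below all others, while its ALB value (black diamond) of 7.06 lies among those of the other healthy cows and its PROS1 value (red triangle) of 0.084 does not.

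The groups also differed in the arrays themselves. The spread of the log2 ratios, as the median absolute deviation per cow, was 1.12 ± 0.128 (SD, n = 7) in the healthy group and 1.40 ± 0.185 (SD, n = 7) in the ketotic group (two-sided exact permutation p = 0.00758, adjusted over 2 measures 0.0152). The share of empty spots, here and as a covariate below, also counts spots at the ceiling value, which were read as missing. These spots together made up 11.9% ± 2.80 of the healthy and 16.5% ± 4.49 of the ketotic arrays (two-sided exact permutation p = 0.0338, adjusted 0.0338). Without healthy cow 7 the healthy values were 1.14 ± 0.123 (SD, n = 6) for the spread (two-sided exact permutation p = 0.0175, adjusted 0.0350) and 12.3% ± 2.78 for the empty spots, where the test did not pass (two-sided exact permutation p = 0.0670, adjusted 0.0670). The smallest p either design allows is 0.000583. Most of the 49 genes sat far above the array median, and the comparison was therefore also made with every array scaled to one spread.

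With all 14 cows, 1 of the 49 genes was higher in ketotic cows, ALB, and 1 was lower, SERPINB6. Among all genes tested, 0.92% were called higher and 12.4% lower at an adjusted p under 0.05 (limma, Benjamini-Hochberg over all genes), so the share of the set called lower, 2.04%, was below that of all genes. The median difference, ketotic minus healthy, was 0.15 over the 49 genes and -0.18 over all genes, with 29 of the 49 differences above 0 and 20 below. Ketotic and healthy cows overlapped for all 49 genes, while 5.39% of all genes had every ketotic cow below every healthy cow. Healthy cow 7 lay below all 13 other cows for 42 of the 49 genes. For these 42 the ketotic cows could not lie below every healthy cow, so the contrast with all genes is not read as a result of the set.

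Without healthy cow 7, 8 genes of the set were lower and ALB was again the only one higher. The 8 were A2M, PROS1, C6, CFD, SERPINA6, C1QB, F5 and SERPINB6, or 16.3% of the set, near the 18.4% of all 6878 genes then called lower; 1.5% of all genes were called higher. The median difference was -0.13 over the set and -0.19 over all genes. A2M, PROS1 and CFD had all 7 ketotic cows below all 6 healthy cows, 3 of 49 genes, against 8.59% of all genes. With the arrays centred, the set's median thus changed its sign when 1 cow was left out. Its sign also depended on the scaling. With all 14 cows it was -0.73 on one spread, -0.24 as deposited and -0.18 after quantile normalisation. It was 0.27 when arrays were centred on probes with a value at every spot.

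**Figure D2:**
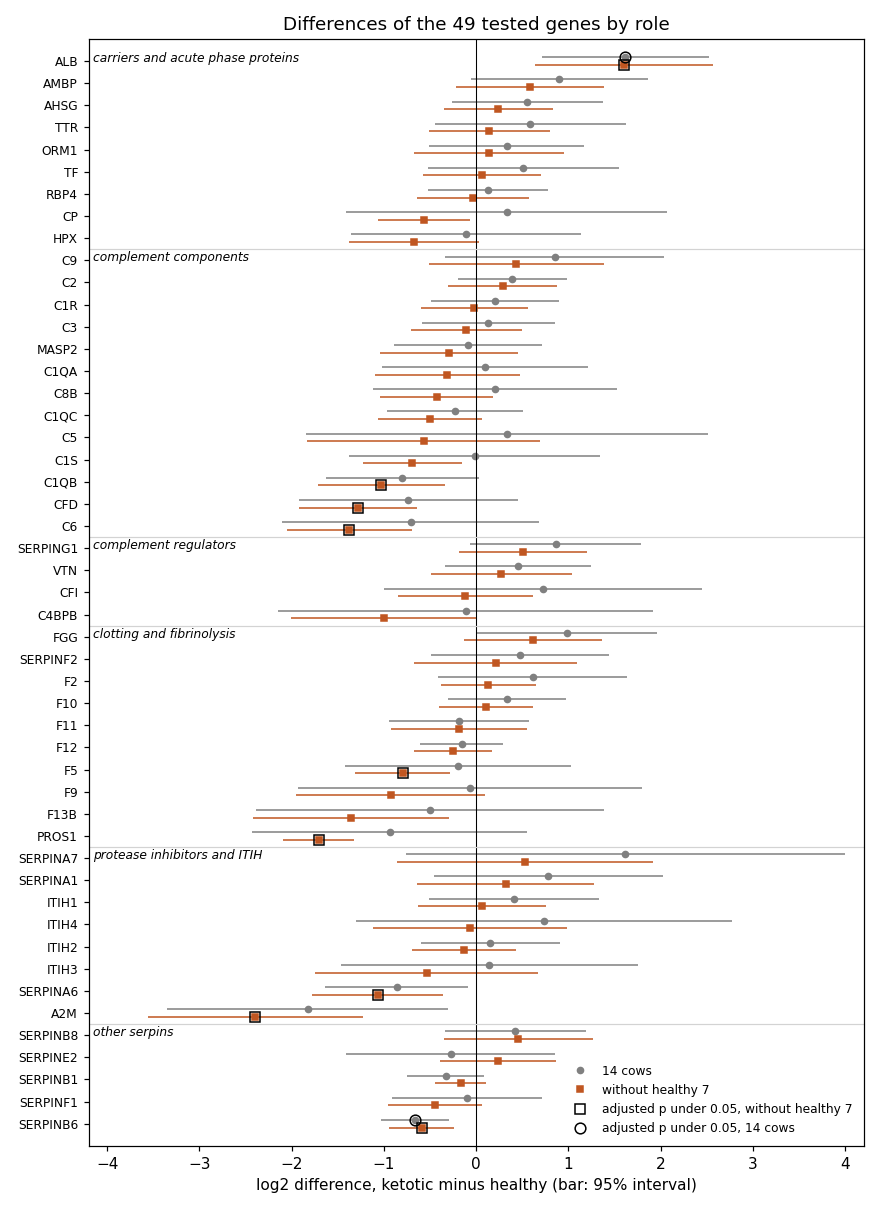
Log2 difference, ketotic minus healthy, with its 95% interval (x axis) for each of the 49 tested genes, grouped by role (y axis); grey circles are the fit of 14 cows and orange squares the fit without healthy cow 7. Black outlines mark an adjusted p under 0.05: ALB and SERPINB6 in both fits, and A2M, PROS1, C6, CFD, SERPINA6, C1QB and F5 in the fit without that cow, where their intervals are narrower.

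Among the 9 measured carriers and acute phase proteins, only ALB passed the test. ALB, the albumin gene, had levels of 6.28, 7.06 and 8.20 in healthy cows (lowest, median and highest) and 7.16, 8.79 and 10.6 in ketotic cows. The groups overlapped, with 5 of 7 ketotic cows above every healthy cow. ALB was higher in ketotic cows by 1.62 on the log2 scale (SE 0.426, 3.06-fold, limma adjusted p = 0.0228, n = 7 per group), and by 1.60 without healthy cow 7 (SE 0.451, adjusted p = 0.0233). The call was kept whichever cow was left out, with differences from 1.32 to 1.88. It was not kept on one spread, where ALB differed by -0.073 (adjusted p = 0.938) with levels of 6.78, 7.95 and 9.37 in ketotic cows and, in healthy cows 1 to 6, of 6.80, 7.96 and 8.25.

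The other carriers did not pass. TTR, which carries thyroid hormone and the retinol-binding protein, had levels of 1.96, 4.84 and 6.08 in healthy and 4.62, 5.06 and 5.88 in ketotic cows (difference 0.59, adjusted p = 0.467). TF, the iron carrier transferrin, lay at 3.97, 6.81 and 8.09 against 6.50, 7.06 and 7.78 (difference 0.51, adjusted p = 0.537). For both genes the lowest value was that of healthy cow 7, and without it the differences were 0.14 and 0.06. AHSG, fetuin-A, a carrier of calcium and phosphate, ranged over 3.82, 5.73 and 6.92 in healthy and 5.58, 6.12 and 7.02 in ketotic cows (difference 0.56, adjusted p = 0.369, and 0.24 without healthy cow 7). CP, the copper-binding ferroxidase ceruloplasmin, had healthy levels of 2.0, 8.07 and 8.78 and ketotic levels of 6.95, 7.72 and 8.25. Its difference of 0.33 (adjusted p = 0.840) turned to -0.57 without healthy cow 7 (adjusted p = 0.105), where 4 of 7 ketotic cows were below the other healthy cows. HPX, the heme scavenger hemopexin, had 2.37, 6.27 and 7.47 in healthy and 5.06, 5.75 and 6.22 in ketotic cows (difference -0.11, adjusted p = 0.928, and -0.68 with adjusted p = 0.164 without healthy cow 7). AMBP, the precursor of alpha-1-microglobulin and bikunin, differed by 0.90, ORM1, an acute phase glycoprotein, by 0.33, and RBP4, the retinol carrier, by 0.13 (adjusted p from 0.205 to 0.836). These 3 differences were 0.59, 0.14 and -0.035 without healthy cow 7, and none passed.

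None of the 13 complement components passed with 14 cows (0 had an unadjusted p under 0.05 in limma), and 3 were lower without healthy cow 7. Of all genes, 12.4% were called lower in the first fit and 18.4% in the second. C6, which joins the membrane attack complex, had levels of -0.44, 3.86 and 4.90 in healthy and 1.69, 2.96 and 3.52 in ketotic cows. The value of -0.44 was that of healthy cow 7, and 6 of 7 ketotic cows lay below the 3.43 of the next healthy cow. C6 differed by -0.71 with 14 cows (adjusted p = 0.523) and by -1.37 without healthy cow 7 (SE 0.318, 2.59-fold lower, adjusted p = 0.00888). CFD, factor D, the protease that cleaves factor B in the alternative pathway, had 0.69, 4.00 and 5.52 in healthy and 2.52, 3.38 and 3.80 in ketotic cows. Here too healthy cow 7 was the lowest, and the other 6 healthy cows, at 3.89 or more, were above every ketotic cow. The differences of CFD were -0.73 (adjusted p = 0.422) and, without healthy cow 7, -1.28 (SE 0.299, 2.43-fold lower, adjusted p = 0.00927).

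C1q, the recognition molecule of the classical pathway, is built of 3 chains that macrophages make, unlike most other plasma proteins of the set. In the order of genes on ARS-UCD2.0, C1QC and C1QA are next to each other and 1 gene lies between C1QB and C1QC. C1QB had levels of 2.96, 4.41 and 5.36 in healthy cows, and 3.01, 3.15, 3.59, 3.77 and 4.22 in the 5 ketotic cows with a value. Of these 5, 3 were below healthy cows 1 to 6, and healthy cow 7, at 2.96, was below all 5. C1QB differed by -0.80 with 14 cows (adjusted p = 0.195) and by -1.03 without healthy cow 7 (SE 0.319, 2.04-fold lower, adjusted p = 0.0388). The other chains gave no call in either fit. C1QA had 2.35, 4.94 and 6.28 in healthy and 4.03, 4.90 and 5.97 in 6 ketotic cows (difference 0.10, and -0.31 without healthy cow 7), and C1QC differed by -0.23 and -0.50. Beside them, 6 of 12 listed macrophage markers were measured. With 14 cows AIF1, CD74 and LAPTM5 were lower, where 12.4% of all genes were, and the other 3 did not pass. The median level of these 6 was 0.98 to 2.12 in healthy cows 1 to 6, 0.53 in healthy cow 7 and 0.66 to 1.76 in ketotic cows. Fewer macrophages and less RNA per macrophage cannot be told apart in whole liver, and their part in the C1QB result was not tested.

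The remaining components did not pass in either fit. C3, on which all pathways of complement converge, had 3.88, 5.15 and 6.51 in healthy and 4.81, 5.39 and 5.98 in ketotic cows (difference 0.13, adjusted p = 0.850, and -0.11 without healthy cow 7). C5, which starts the lytic complex, had 1.66, 7.04 and 10.2 in healthy and 6.54, 7.56 and 8.19 in 6 ketotic cows (difference 0.33, adjusted p = 0.874, and -0.57 without healthy cow 7). The proteases of the C1 complex, C1R and C1S, which are next to each other in the genome, differed by 0.21 and -0.02, and by -0.02 and -0.69 without healthy cow 7. C2, the protease of the classical and lectin pathways, differed by 0.39, MASP2, the protease of the lectin pathway, by -0.09, and the lytic complex members C8B and C9 by 0.20 and 0.85. In the fit without healthy cow 7, C2 was at 0.29, MASP2 at -0.30, C8B at -0.43 and C9 at 0.44, so that C8B changed its sign. The nearest to the threshold among these without healthy cow 7 was C1S (adjusted p = 0.0659).

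The 4 complement regulators measured did not pass with or without healthy cow 7 (0 had an unadjusted p under 0.05 in limma in either fit). SERPING1, the C1 inhibitor, had levels of 2.46, 4.58 and 5.82 in healthy and 4.51, 5.41 and 6.37 in ketotic cows (difference 0.86, SE 0.436, adjusted p = 0.210, and 0.51 without healthy cow 7). The groups overlapped, and the lowest value was that of healthy cow 7. CFI, factor I, which cleaves C3b, differed by 0.73, VTN, vitronectin, which blocks the lytic complex, by 0.45, and C4BPB, a chain of the C4b-binding protein, by -0.11. With that cow left out, CFI was at -0.12, VTN at 0.27 and C4BPB at -1.0 (adjusted p = 0.148, 6 ketotic cows measured), so that CFI changed its sign.

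Of 10 tested clotting and fibrinolysis genes, none passed with 14 cows (1 had an unadjusted p under 0.05 in limma) and PROS1 and F5 were lower without healthy cow 7. Of all genes, 12.4% were called lower in the first fit and 18.4% in the second. PROS1, protein S, the cofactor with which activated protein C inactivates factor V and factor VIII, had levels of 0.084, 5.51 and 5.76 in healthy and 3.18, 3.84 and 4.33 in ketotic cows. Healthy cow 7 gave the 0.084; the other 6 healthy cows lay between 5.11 and 5.76, and every ketotic cow was below them. The difference was -0.94 with 14 cows (SE 0.699, adjusted p = 0.410) and -1.71 without healthy cow 7 (SE 0.182, 3.27-fold lower, adjusted p = 0.000437), the lowest adjusted p in the set. F5, factor V, had 0.97, 5.18 and 5.50 in healthy and 3.61, 4.56 and 5.19 in ketotic cows, with 6 of 7 ketotic cows below the 4.70 of the lowest healthy cow other than cow 7. Its difference was -0.20 (adjusted p = 0.868), and without healthy cow 7 it was -0.80 (SE 0.240, 1.74-fold lower, adjusted p = 0.0310). Factor V also serves activated protein C as a cofactor once cleaved.

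The other clotting genes did not pass in either fit. FGG, the gamma chain of fibrinogen, had 4.34, 6.45 and 8.19 in healthy and 7.15, 7.41 and 8.03 in ketotic cows (difference 0.98, SE 0.461, adjusted p = 0.174, and 0.62 without healthy cow 7). Ketotic cows lay close together and within the range of the healthy cows. F2, prothrombin, had 0.29, 3.24 and 4.37 in healthy and 3.30, 3.86 and 4.22 in ketotic cows (difference 0.61, adjusted p = 0.437, and 0.13 without healthy cow 7). Of the contact and intrinsic factors, F9 differed by -0.070, F11 by -0.18 and F12 by -0.16. Without healthy cow 7 they were at -0.93, -0.18 and -0.25. F10, which converts prothrombin, differed by 0.33, F13B, the carrier chain of the fibrin-linking factor XIII, by -0.50, and SERPINF2, the plasmin inhibitor, by 0.47. These were at 0.11, -1.36 (adjusted p = 0.0685) and 0.21 without healthy cow 7. KNG1, kininogen, had values from both arrays in 4 healthy cows (8.50, 9.14, 9.16 and 9.73) and 5 ketotic cows (7.56, 8.10, 9.81, 10.1 and 10.1), too few for the test, as 18 of its 56 spots gave no usable ratio. Where 1 array of a cow was enough, KNG1 differed by 0.40 (SE 0.612, adjusted p = 0.743).

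Among the protease inhibitors, A2M had the largest difference of the set without healthy cow 7, in either direction. A2M, alpha-2-macroglobulin, which traps proteases of many classes, had levels of 2.41, 6.19 and 7.28 in healthy and 1.54, 4.06 and 5.43 in ketotic cows. Healthy cows 1 to 6 lay at 5.53 or above, over every ketotic cow, and healthy cow 7 at 2.41 was below 6 of the 7. The difference was -1.83 with 14 cows (SE 0.716, adjusted p = 0.105) and -2.39 without healthy cow 7 (SE 0.546, 5.26-fold lower, adjusted p = 0.00836). On one spread it passed with all 14 cows as well, at -2.78 (adjusted p = 0.0335). SERPINA6, the corticosteroid-binding globulin that carries cortisol, had 0.63, 1.56 and 3.57 in healthy and 0.69, 0.98 and 1.63 in ketotic cows, with 6 of 7 ketotic cows below healthy cows 1 to 6. It differed by -0.86 (adjusted p = 0.134), by -1.07 without healthy cow 7 (SE 0.332, 2.10-fold lower, adjusted p = 0.0357) and by -1.10 on one spread (adjusted p = 0.0448).

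SERPINA1, alpha-1-antitrypsin, did not share these differences; 1 gene lies between it and SERPINA6 in the genome. Its levels were 2.98, 5.64 and 7.70 in healthy and 5.37, 6.61 and 7.44 in ketotic cows (difference 0.78, adjusted p = 0.413, and 0.32 without healthy cow 7). SERPINA7, the thyroxine-binding globulin, had a difference of 1.62, as large as that of ALB, but an SE of 1.11 (adjusted p = 0.369), and without healthy cow 7 it was at 0.53. The inter-alpha-trypsin inhibitor heavy chains, which bind hyaluronan, did not pass: ITIH1, ITIH2, ITIH3 and ITIH4 differed by 0.41, 0.15, 0.14 and 0.74, and by 0.06, -0.13, -0.53 and -0.07 without healthy cow 7. SERPINA14, the uterine serpin, had values from both arrays in 4 healthy and 6 ketotic cows and was not tested; where 1 array of a cow was enough, it differed by 0.48 (SE 0.556, adjusted p = 0.641).

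The last 5 serpins act largely inside cells or outside the plasma. SERPINB6, an intracellular inhibitor of serine proteases, had levels of 0.18, 0.70 and 1.08 in healthy and -0.48, 0.04 and 0.50 in ketotic cows. Healthy cow 7 was here the highest, and 5 of 7 ketotic cows lay below all healthy cows. SERPINB6 was lower, with a difference of -0.66 (SE 0.174, 1.58-fold, adjusted p = 0.0228), of -0.59 without healthy cow 7 (adjusted p = 0.0231) and of -0.73 on one spread (adjusted p = 0.0231). It was the only gene of the set called in all these fits. SERPINB6 was not called with the spread of the arrays or the empty spots as a covariate, nor with liver in Cy5 alone, with or without healthy cow 7. SERPINB1, an inhibitor of neutrophil proteases, differed by -0.33, SERPINB8 by 0.42, SERPINE2, protease nexin 1, by -0.28, and SERPINF1, pigment epithelium-derived factor, by -0.10. The 4 were, without healthy cow 7, at -0.17, 0.45, 0.24 and -0.45, so that SERPINE2 changed its sign, and none passed in either fit.

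**Figure D3:**
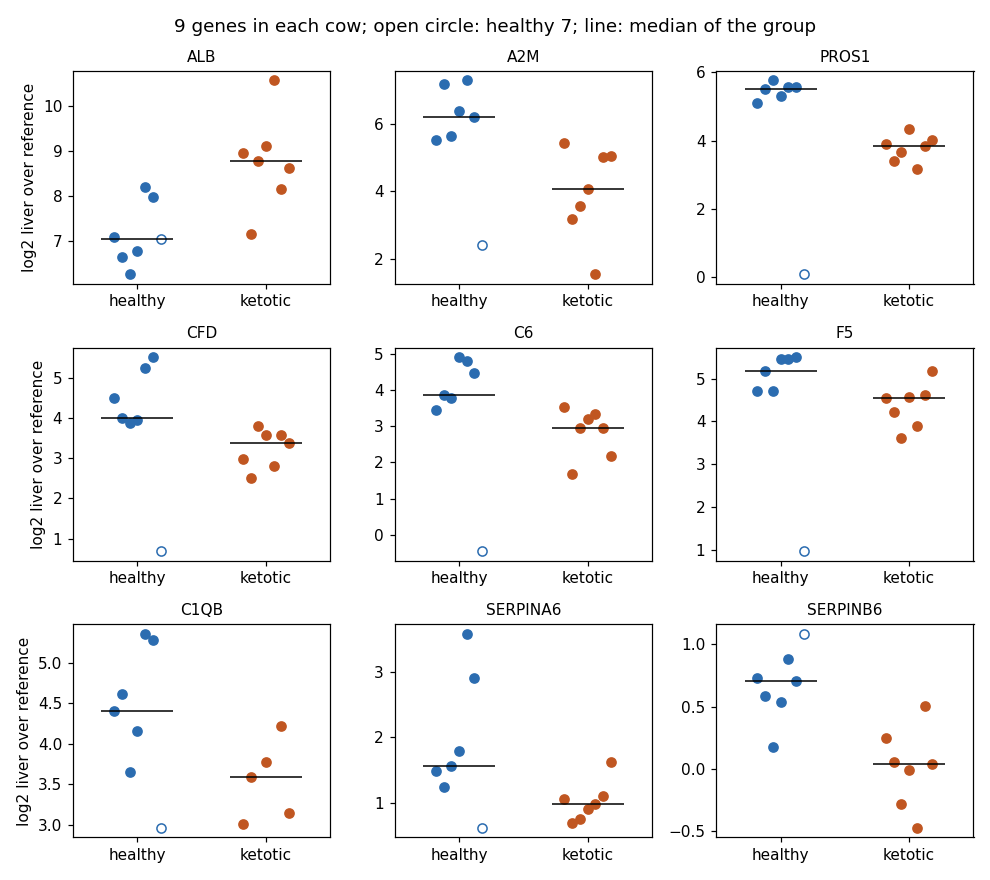
Log2 ratio of liver over reference (y axis) in each cow for the 9 genes called in the fit of 14 cows or in that without healthy cow 7; filled blue circles are healthy cows 1 to 6, open circles healthy cow 7, orange circles ketotic cows and lines the median of each group. ALB is mostly higher in ketotic cows, the other 8 genes are lower, and healthy cow 7 is the lowest healthy cow in 7 of the 9 panels.

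Scaling every array to one spread turned most differences of the set below 0. With 14 cows, 46 of the 49 differences were negative and the median was -0.73, against -0.15 over all genes. A2M, C1QB, SERPINA6 and SERPINB6 were lower, 8.16% of the set against 7.4% of all genes, and no gene of the set was higher (0 at an unadjusted p under 0.05 in limma), against 0.503% of all genes. C1QB differed by -1.57 on this scale (adjusted p = 0.0193). Leaving out 1 cow moved the count from 4 to between 1 and 29. It was 2 or fewer without healthy cow 1, 5 or 6 or without ketotic cow 2, 4, 5 or 7. The shares of all genes in these fits are not given here, apart from 18.9% without healthy cow 7. The counts are therefore not read as a result of the set.

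On one spread and without healthy cow 7, 29 of the 49 genes were lower, 59.2% of the set against 18.9% of all genes, and none was higher (1 at an unadjusted p under 0.05 in limma), against 2.38% of all genes. The 29 held 6 of 9 carriers (AHSG, CP, HPX, ORM1, RBP4 and TF), 10 of 13 complement components, 2 of 4 regulators, 5 of 10 clotting genes, 4 of 8 inhibitors and 2 of 5 other serpins. CP differed by -2.09 (adjusted p = 0.00108), with levels on this scale of 8.27, 9.07 and 9.90 in healthy cows 1 to 6 and 5.69, 6.94 and 8.11 in ketotic cows. PROS1 differed by -2.58 (adjusted p = 0.000185), with 5.24, 6.10 and 6.62 against 2.35, 3.59 and 3.92. ALB, by contrast, differed by 0.094 (adjusted p = 0.886). A shift down was also seen in other genes with high ratios: of 84 genes outside the set with a mean level of at least 4, 44 were lower in this fit, or 52.4%. Their median difference was -1.05, against -1.12 for the 33 genes of the set at that level. The 59.2% is over all 49 genes of the set, and the share called among these 33 is not given here.

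**Figure D4:**
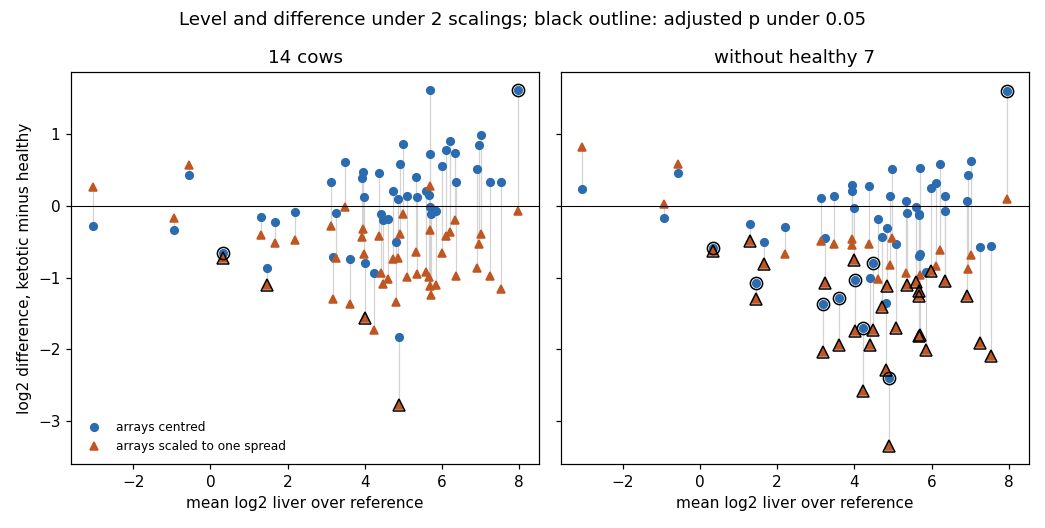
Difference, ketotic minus healthy (y axis, log2), against the mean level over cows (x axis, log2 ratio of liver over reference) for the 49 genes with arrays centred (blue circles) and scaled to one spread (orange triangles), with 14 cows (left) and without healthy cow 7 (right); grey lines join the 2 values of a gene and black outlines mark an adjusted p under 0.05. Genes with high ratios move down most between the scalings, from a median of 0.33 to -0.92 over the 33 genes at a level of at least 4 with 14 cows, and ALB, at the far right, moves from 1.62 to -0.073.

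Without healthy cow 7, the genes that were lower differed in how they fared under other models. With the spread of the arrays as a covariate, PROS1 and SERPINA6 passed, and with the empty spots in that place C6, CFD, HPX, PROS1 and SERPINA6 did. In the arrays with liver in Cy5 alone, A2M and PROS1 passed, and with liver in Cy3 alone A2M, ALB, C6, CFD, PROS1, SERPINA6 and SERPINB6. In these 4 fits 2.33%, 8.88%, 2.5% and 13.9% of all genes were called lower, in the order given, against 4.08%, 10.2%, 4% and 12% of the set, and with Cy3 alone 0.956% were called higher. PROS1 was the one gene called in all 4, with differences of -1.72 (adjusted p = 0.0145), -1.68 (adjusted p = 0.00586), -1.80 (adjusted p = 0.0123) and -1.62 (adjusted p = 0.00031) in that order. With all 14 cows, no gene of the set passed with the spread as a covariate (3 at an unadjusted p under 0.05 in limma), with the empty spots as one (4) or with liver in Cy5 alone (3); on the whole array 7, 168 and 12 genes passed. A2M, C1QB, C1QC, C6, CFD, F5, F12, PROS1, SERPINA6 and SERPINB6 had negative differences under every one of up to 38 alternatives in which they were tested. They were picked by this outcome, and the alternatives reuse the same cows. SERPINB8 had a positive difference under all 38 and no call in any. The share of all genes with negative differences under every alternative is not given here. In the single fit of 14 cows, 4673 of all 6958 genes had negative differences.

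Of 69 other genes listed for these pathways, 33 were tested, and 6 were lower and none higher with 14 cows (10 had an unadjusted p under 0.05 in limma). The 6 are 18.2% of those tested, against the 12.4% of all genes called lower. FN1, fibronectin, had the largest difference, -1.52 (SE 0.179, 2.87-fold lower, adjusted p = 0.00112). CLU, clusterin, which restrains the lytic complex, was lower at -0.91 (adjusted p = 0.00433), and VKORC1, which recycles the vitamin K that protein S and other clotting factors need to be carboxylated, at -1.19 (adjusted p = 0.00919). JAK1 and RELA, which carry cytokine signals to acute phase genes, were lower at -0.89 (adjusted p = 0.00341) and -1.08 (adjusted p = 0.00243), and LRP1, the receptor that clears alpha-2-macroglobulin complexes, at -0.38 (adjusted p = 0.0468). All 6 were lower without healthy cow 7 and on one spread too. Without healthy cow 7 the count was 9, or 27.3% against 18.4% of all genes, with CD59, IL6R and STAT3 added.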

How the data were processed

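The deposited values are log2 ratios of Cy5 over Cy3 per spot, uncentred; the steps by which the authors made them from the scans are not given in the sources used here. Empty cells (103458) and values at the ceiling of 16.61 (6245) were read as missing. The sign was turned on arrays with Cy3-labelled liver, neighbouring spots averaged to 13824 probes, and each array centred on its median. Hepatocyte markers then lay above stellate cell markers on 28 of 28 arrays; the label fields of 1 ketotic array name Cy5 for both channels. A cow needed both arrays and a probe 5 cows per group. Names came from the platform annotation, updated through gene IDs; probes with several symbols were left out. Groups were compared with limma 3.58.1 (R 4.3.3; lmFit, eBayes, two-sided, Benjamini-Hochberg over all genes, threshold 0.05); SE is limma's. The number of cows, 7 per group, limits the precision. For one spread, each array was divided by its median absolute deviation and multiplied by the median deviation over arrays, 1.25. The fit was tested on simulated data. Members and lists were chosen with earlier results of these data known. Every member is named; the lowest, median and highest cow are given for those called in the fits of 14 cows, on one spread or without healthy cow 7, and for a fixed list of main plasma proteins; other genes are named from the pathway list where they passed, and the 3 macrophage markers and the 3 pathway genes added without healthy cow 7 were named after their values were seen. Alternatives in scaling, dyes, filters, covariates, weights and cows left out were tried. Cow numbers only name cows, and the labels give no batch. Figures were drawn with matplotlib.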

Additional observations from a re-analysis of the deposited data

Results flagged for a closer look

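In 19 of 98 groups of values searched (2 groups of cows for each of 49 genes), 1 cow lay far from the rest of its group, where chance would give about 4.9. Healthy cow 7 was that cow in 18, and the genes share its 2 arrays. It was the lowest healthy cow for A2M at 2.41, C1S at 1.63, C4BPB at -0.88, C5 at 1.66, C6 at -0.44, C8B at 0.82, CFD at 0.69, CFI at 0.25, CP at 2.0, F2 at 0.29, F5 at 0.97, F9 at 0.75, HPX at 2.37, ITIH4 at 1.22, PROS1 at 0.084 and SERPINA7 at -0.54. It was the highest healthy cow for SERPINB1 at 0.22 and SERPINE2 at 0.16. The nearest healthy cow was at 5.11 for PROS1, 7.81 for CP and 4.70 for F5, and at -2.71 for SERPINE2. The remaining case was C8B in ketotic cow 3, at 4.10 against 4.69 in the next ketotic cow.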

How the results depend on the processing

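No paired analysis was possible because the labels give no replicate numbers that the groups share. The causes of the changes below were not tested. The count of genes higher was 1 in each fit without 1 cow, and 0 on one spread, after quantile normalisation, with liver in Cy5 alone and with the empty spots or the spread as a covariate, and, without healthy cow 7, on one spread, with either covariate and with Cy5 alone. The count lower ranged from 1 to 8 over the fits without 1 cow, where 8.92% to 18.4% of all genes were called lower. It was 4 on one spread (7.4% of all genes), 5 as deposited (35.4%), 3 after quantile normalisation (7.72%), 0 with Cy5 alone (0.144%) and with the empty spots (2.3%) or the spread (0.101%) as a covariate, 6 with cow weights (18.5%) and 3 with the cow as a random block (14.8%), each share being that of all genes called lower. Without healthy cow 7 it was 29 on one spread (18.9%), 5 centred on complete probes (12.2%), 19 as deposited (47.3%), 15 after quantile normalisation (18.3%), 2 with the spread (2.33%) and 5 with the empty spots (8.88%) as a covariate, 6 with Cy3 alone (13.9%) and 2 with Cy5 alone (2.5%). On one spread the count ranged from 1 to 29 without 1 cow, where shares of all genes other than the 18.9% above are not given. The median difference ranged from -0.13 to 0.44 without 1 cow, and was -0.73 on one spread and -1.04 on one spread without healthy cow 7.

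Over the 49 genes and their alternatives, 288 differences changed sign with no call in the fit of 14 cows or in the alternative; with 14 cows on one spread, 46 differences were negative. Another 17 changed sign with a call in one of them: ALB to -0.073 on one spread; on one spread without healthy cow 7, AHSG to -0.90, C1QA to -1.12, C1R to -1.07, C3 to -1.11, C5 to -1.91, C8B to -1.41, CFI to -1.26, CP to -2.09, ITIH2 to -1.19, ITIH3 to -1.70, ORM1 to -1.04, RBP4 to -0.76 and TF to -1.25; as deposited without that cow, C8B to -0.87 and CP to -1.01; after quantile normalisation without it, CP to -0.76. ALB passed in 29 and SERPINB6 in 32 of 38 alternatives, with adjusted p from 0.00354 to 0.938 and from 0.00445 to 0.351. The combinations without healthy cow 7 were chosen after seeing the data.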
